A study of Mus musculus with 28 samples.

Results

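Primary cortical neurons that had received DMSO were compared over all genes with wild-type neurons derived from embryonic stem (ES) cells, to describe the regional identity, the maturity and the glial content of the 2 kinds of culture. The cortical side was the 3 arrays titled as cortical neurons with DMSO, and the ES-derived side was the 3 arrays titled as wild type at TN day 6. Together they are 6 of the 28 arrays of the series. All cells are from mice of strain 129SvEv. The cortical cells are labelled as glutamatergic neurons taken at E16.5 (a day of embryonic development) and given DMSO, the vehicle of the topoisomerase II inhibitor ICRF-193, and their labels give no genotype. The TN day 6 cells are labelled wild type and carry no treatment label of their own. TN names a stage of a published route from ES cells through neuronal progenitors to neurons and is not spelled out in the labels. A treatment text shared by every sample gives DMSO or 50 µM ICRF-193, renewed daily over TN days 2 to 5, and it does not say when the cortical cells were treated. Another 3 groups served as a second reading of the same contrast: TN day 5 cells with DMSO (2 arrays), cortical neurons with ICRF-193 (3 arrays) and TN day 5 cells with ICRF-193 (2 arrays), none of which has a genotype label. The labels do not say whether the arrays of a group came from separate cultures or animals, so a p-value here covers no more than array-to-array spread, which may be technical. Source of the cells, vehicle, day and culture change together between the cortical DMSO and TN day 6 arrays and cannot be told apart. The RNA came from whole cultures, in which fewer cells of a type and less RNA per cell cannot be told apart either.

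The cerebral cortex forms from the telencephalon, the front end of the neural tube. Its dorsal wall makes glutamatergic projection neurons under factors such as Emx1, Neurod6 and Tbr1, while its ventral wall makes GABAergic interneurons under the Dlx factors, and these migrate into the cortex. The hindbrain and spinal cord are patterned instead by Hox genes, which lie in 4 clusters and are switched on in their order along the chromosome, and retinoic acid is a signal that activates them. Astrocytes and oligodendrocyte precursors arise from the same progenitors after the neurons, whereas microglia enter the brain from the yolk sac.

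Sequences of genes from either end of the regional difference are shown before the values. The promoters are those of Tbr1, a T-box factor of early-born cortical projection neurons and one of the genes highest in cortical arrays relative to TN day 6, and of Hoxa5, a Hox factor of the neck-level spinal cord and hindbrain with the opposite pattern. Each window holds 300 bases around the annotated start of the gene, most of them upstream (RefSeq, GRCm38.p6). Capitals mark TAATTA, a palindromic core to which many homeodomain proteins bind.
Tbr1, chr2:61804203-61804502, plus strand: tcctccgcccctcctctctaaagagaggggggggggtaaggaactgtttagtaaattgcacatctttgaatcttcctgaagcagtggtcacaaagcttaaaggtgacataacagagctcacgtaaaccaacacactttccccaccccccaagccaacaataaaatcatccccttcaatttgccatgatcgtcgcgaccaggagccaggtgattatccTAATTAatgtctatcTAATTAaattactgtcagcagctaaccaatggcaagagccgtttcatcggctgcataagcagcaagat
Hoxa5, chr6:52204538-52204837, minus strand: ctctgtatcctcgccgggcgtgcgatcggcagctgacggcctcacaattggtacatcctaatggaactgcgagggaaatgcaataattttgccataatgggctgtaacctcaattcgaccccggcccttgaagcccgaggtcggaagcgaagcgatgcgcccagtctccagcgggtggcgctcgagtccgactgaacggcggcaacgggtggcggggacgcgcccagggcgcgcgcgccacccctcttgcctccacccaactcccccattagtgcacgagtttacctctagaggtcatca

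The Tbr1 window held 2 copies of TAATTA, a motif found in 5.29% of the 32851 windows of 300 bases, and the Hoxa5 window held 0. CAGATG, searched on both strands with its reverse complement CATCTG as an E-box used by NeuroD factors, was found in neither window and in 17.2% of all windows. The Hoxa5 window was the richer in CpG, with 29 CpG dinucleotides and 61.7% G and C against 7 and 46.0% in the Tbr1 window. A match describes letters in the window and not a bound site.

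The microRNA genes Mir10a and Mir10b lie inside the Hoxb and Hoxd clusters, and Mir377 and Mir382 are members of a large imprinted cluster of microRNAs between Dlk1 and Dio3. These 4 and the other microRNA genes below were chosen after their values were seen. Capitals mark the seed, bases 2 to 8, through which a microRNA pairs with its targets (RefSeq, GRCm38.p6).
miR-10a-5p, chr11:96317186-96317208: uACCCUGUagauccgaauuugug
miR-10b-5p, chr2:74726074-74726096: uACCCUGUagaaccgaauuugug
miR-377-3p, chr12:109740553-109740574: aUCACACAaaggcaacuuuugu
miR-377-5p, chr12:109740515-109740536: aGAGGUUGcccuuggugaauuc
miR-382-5p, chr12:109733781-109733802: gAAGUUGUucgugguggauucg
miR-382-3p, chr12:109733819-109733840: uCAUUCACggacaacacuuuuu

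miR-10a-5p and miR-10b-5p share the seed ACCCUGU. The arms of Mir377 and Mir382 have 4 different seeds, and the 40 microRNA genes measured between Dlk1 and Dio3 have 76 mature sequences with 74 different seeds. The arrays measure a microRNA gene with 1 probe set and do not tell its arms or its precursor apart.

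The deposited values are log2 levels, and a difference is given as cortical minus ES-derived with the standard error (SE) of the fit; a difference of 1 is a 2-fold change. A gene was called at an adjusted p under 0.05. The arrays of a group agreed closely, with correlations between 0.9965 and 0.9970 for TN day 6 wild type and between 0.9967 and 0.9968 for cortical DMSO. On the first principal component of all 28 arrays (58.4% of the variance) the cortical DMSO arrays lay between 49.6 and 50.8 and the TN day 6 arrays between 50.1 and 51.8. The second component (14.12%) separated them, with cortical arrays between 43.6 and 44.9 and TN day 6 arrays between -16.6 and -15.6. The 2 TN day 5 DMSO arrays lay near the TN day 6 arrays on the second component, at -9.9 and -9.6.

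**Figure D1:**
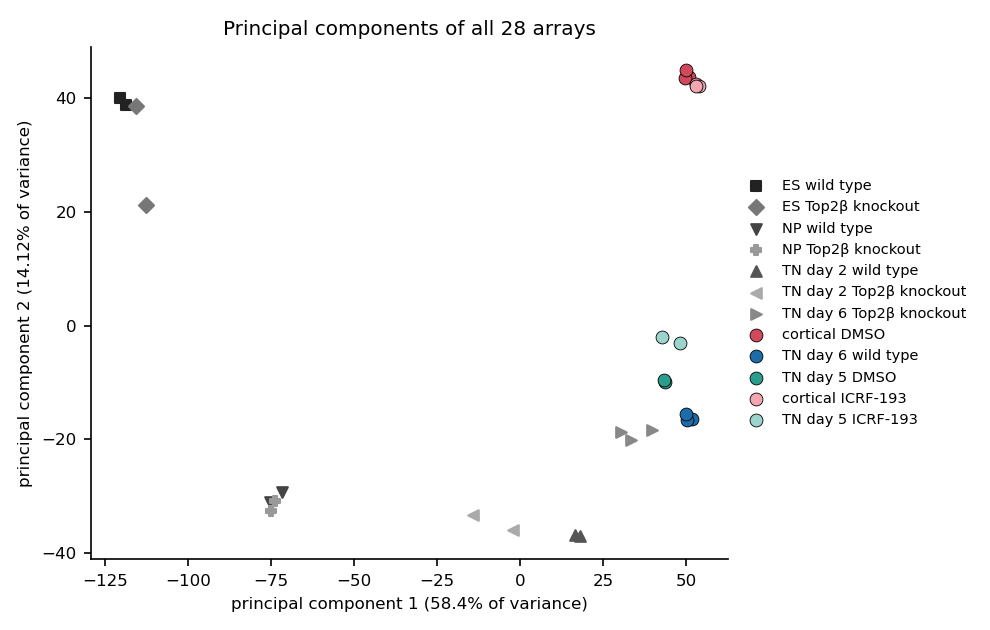
Scores of all 28 arrays on the first (horizontal) and second (vertical) principal component of the log2 levels, 1 point for each array and 1 symbol for each of the 12 groups. The cortical and ES-derived neuron arrays sit at similar places on the first component and far apart on the second, where cortical DMSO arrays lie between 43.6 and 44.9 and TN day 6 wild-type arrays between -16.6 and -15.6.

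Between cortical DMSO and TN day 6 neurons 8212 of 19938 genes were called, which is 41.2%. Of these, 4086 were higher (20.5% of all genes) and 4126 lower (20.7%) in cortical neurons. The split depended on scaling: quantile normalization gave 4967 higher and 3549 lower, and centring each array on its median gave 5503 and 2579, since centring moved all differences up by 0.13. At least 2-fold changes were fewer and leaned to one side, with 938 genes higher (4.7%) and 499 lower (2.5%). Every cortical array lay above every TN day 6 array for 27.6% of genes and below for 31.8%. Against the vehicle-matched TN day 5 DMSO arrays, 8938 genes were called (44.8%), 902 of them at least 2-fold higher (4.52%) and 456 at least 2-fold lower (2.29%). Centring moved that split further, to 7532 higher and 1700 lower from 4865 and 4073. The total was 5577 without TN day 5 DMSO replicate 1. The 2 ES-derived groups differed from each other in 4462 genes (22.4%; 2434 without TN day 5 DMSO replicate 1), with 1375 higher (6.9%) and 3087 lower (15.5%) at TN day 5, or 793 and 4044 with centring. Of these, 118 were at least 2-fold higher (0.592%) and 164 at least 2-fold lower (0.823%). That split was not stable: it was 209 and 129 without TN day 5 DMSO replicate 1, 84 and 268 without replicate 2, and 137 and 137 with quantile normalization.

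The 15 largest rises included Neurod6, Tbr1, Mef2c and Nfix, which are transcription factors of cortical projection neurons, the cortical peptide Cck and both chains of soluble guanylate cyclase, the nitric oxide receptor (Gucy1a1, 4.53 ± 0.14, and Gucy1b1, 4.56 ± 0.20). Among the 15 largest falls were Mab21l2 (-6.40 ± 0.17), Mab21l1 (-4.56 ± 0.13), 5 Hox genes from Hoxa5 to Hoxb9, and the neuronal factors Ebf1, Ebf3, Tfap2b, Zfhx3, Lhx1 and Zic1. Mab21l2, a gene of eye, midbrain and spinal development, stood at 5.76, 5.49 and 5.61 in cortical arrays and at 11.98, 12.06 and 12 in TN day 6 arrays. Lamp5, a membrane protein of some interneurons, moved the same way as Mab21l2, with 5.47, 5.40 and 5.18 against 10.41, 10.47 and 10.50 (-5.11 ± 0.22, adjusted p = 4.98e-14).

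Dorsal telencephalic identity was the first axis. Tbr1 (probe set 10472313) was at 10.08, 10.14 and 10.20 in cortical arrays and at 4.98, 5.19 and 5.19 in TN day 6 arrays. Every cortical array lay far above every TN day 6 array, and the TN day 6 levels were within the range of genes of odorant and pheromone receptors, which neurons of the brain hardly express (95% of 1194 such genes lay below 5.76 at TN day 6 and below 5.58 in cortical neurons; levels in that range are called dim here). The difference was 5.02 ± 0.12 (adjusted p = 6.61e-18), and it was 4.79 against TN day 5 DMSO. Neurod6 (probe set 10544936), a bHLH factor of postmitotic cortical pyramidal neurons, was at 10.54, 10.48 and 10.64 against 4.6, 4.80 and 4.85. Its difference of 5.80 ± 0.11 (adjusted p = 4.21e-19) was 6.45 against TN day 5 DMSO.

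Mef2c, an activity-regulated factor of cortical neurons, showed the same separation, with 11.36, 11.18 and 11.21 against 5.86, 5.92 and 5.89 (5.36 ± 0.16, adjusted p = 1.26e-16). Nfix, a nuclear factor I protein of late cortical development, was at 11.86, 11.89 and 11.82 against 7.31, 7.27 and 7.27 (4.58 ± 0.31). Emx1, which marks the dorsal progenitor field, differed less, with 7.65, 7.82 and 7.54 against 6.72, 6.67 and 6.83 (0.93 ± 0.11, adjusted p = 6.7e-07). Not every gene with a cortical reputation followed: Bcl11a was lower in cortical arrays (10.17, 10.20 and 10.20 against 11.22, 11.08 and 11.14; -0.95 ± 0.16), as were the corepressor Tle4 (-1.98 ± 0.12) and the zinc finger factor Tshz2 (-3.01 ± 0.13). Bcl11a was not called against TN day 5 DMSO (-0.25, adjusted p = 0.265).

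Of 37 telencephalic and cortical transcription factors 23 were called higher and 8 lower, with a median difference of 1.03, while 20.5% and 20.7% of all genes were called in these directions and the median of all genes was -0.05. Against TN day 5 DMSO 24 were higher and 5 lower, where the shares of all genes were 24.4% and 20.4%. Genes of cortical layers and projection neurons, many of them effectors and not transcription factors, gave 19 higher and 7 lower of 38 (median 0.42). Sla, a Src-like adaptor protein, was at 10.38, 10.13 and 10.54 against 4.69, 4.84 and 4.80 (5.57 ± 0.14), and Tiam2, an activator of Rac, rose by 3.66 ± 0.22. Camk2a, the kinase of excitatory synapses, rose by 2.75 ± 0.12 and Nrgn, a calmodulin-binding protein, by 1.02 ± 0.15. In the opposite direction were Nxph4 (-3.52 ± 0.19), Reln (-2.25 ± 0.14) and the pentraxin Nptx1 (-1.57 ± 0.15).

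Some ventral telencephalic and interneuron factors were also higher in the cortical cultures. Dlx1 (probe set 10472809), a homeodomain factor of interneuron precursors, was at 9.36, 9.66 and 9.51 in cortical arrays and at 5.66, 5.68 and 5.87 at TN day 6 (3.77 ± 0.20, adjusted p = 1.44e-12). Dlx5 was at 8.99, 9.01 and 9.18 against 5.71, 5.70 and 5.95 (3.27 ± 0.15), and Lhx6, a factor of interneurons from the medial ganglionic eminence, at 7.89, 8.14 and 7.93 against 6.29, 6.44 and 6.26 (1.66 ± 0.11). The groups did not overlap for any of the 3 genes, as for 27.6% of all genes in this direction. The cultures labelled as glutamatergic thus also contained RNA of interneuron genes, and Dlx1 was at 9.85, 9.78 and 9.86 in the cortical ICRF-193 arrays. Of 23 ventral and interneuron factors 11 were higher and 7 lower, with a median difference of 0.17. Prox1, Nr2f2, Meis2, Isl1 and Lhx8 were among the 7. Among the falls were Ebf1 (5.18, 4.96 and 5.04 against 10.67, 10.57 and 10.57; -5.54 ± 0.14), a factor of striatal but also of spinal and sensory neurons, and Zfhx3 (-4.65 ± 0.11).

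**Figure D2:**
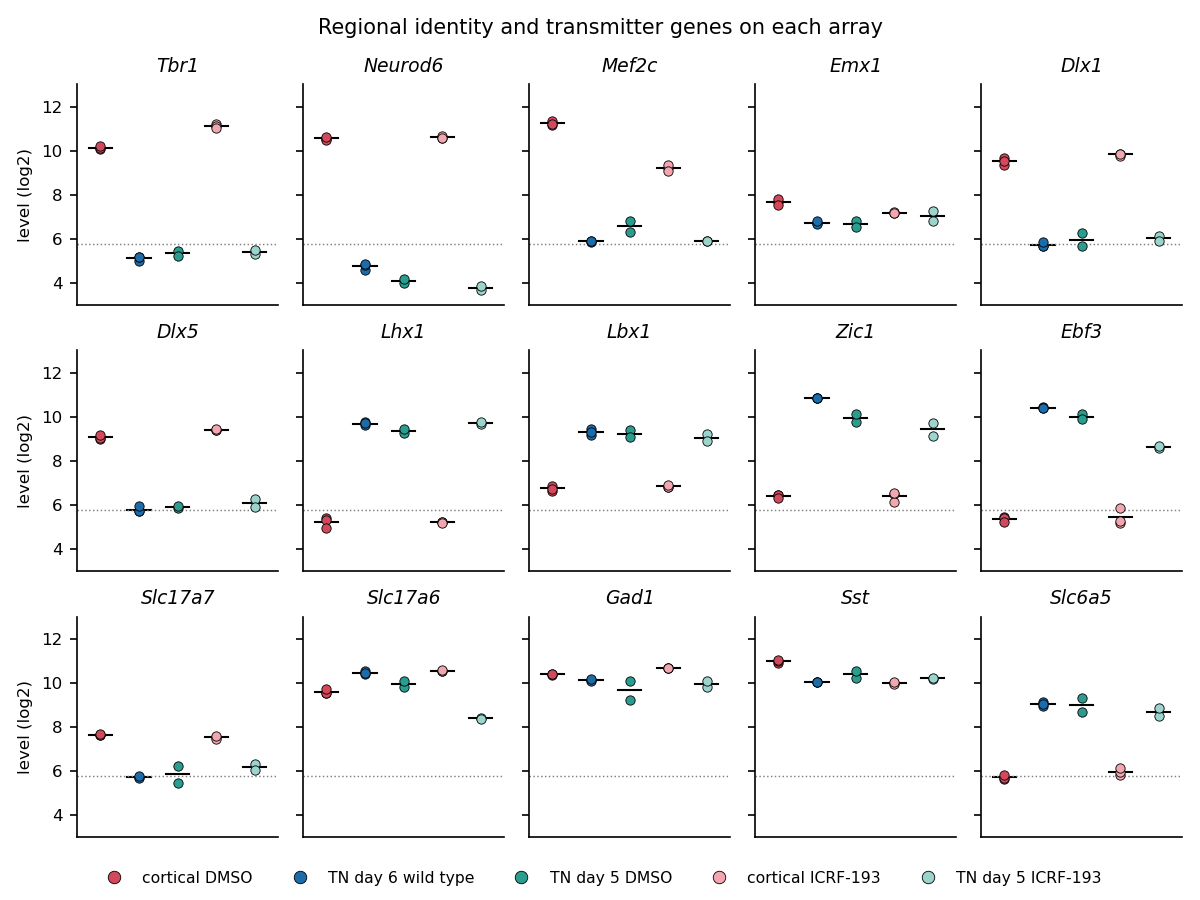
Log2 level of 15 regional and transmitter genes on each array of the 5 neuron groups, with points for arrays and bars for group means; the dotted line is the TN day 6 level of 5.76 below which 95% of receptor genes of the nose lie. Tbr1, Neurod6, Mef2c, Dlx1 and Dlx5 are high in both cortical groups and near or below the dotted line at TN day 6, and Lhx1, Zic1, Ebf3 and Slc6a5 are high at TN day 6 and low in both cortical groups, while Gad1 and Sst are high in every group.

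The ES-derived neurons had a posterior profile. Hoxa5 (probe set 10544768) was at 11.17, 11.16 and 11.04 at TN day 6 and at 5.47, 5.42 and 5.41 in cortical arrays, the latter within the dim range (-5.69 ± 0.18, adjusted p = 2.02e-16). It was no lower at TN day 5, with 11.47 and 11.39 in the DMSO arrays. Hoxb5 was at 10.75, 10.86 and 10.72 against 5.49, 5.60 and 5.73 (-5.17 ± 0.16), and Hoxb9, the most posterior called Hox gene, at 10.38, 10.56 and 10.42 against 6.26, 6.24 and 6.14 (-4.24 ± 0.26). For all 3 genes the TN day 6 arrays lay far above the cortical ones.

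Of 37 Hox genes 20 were called lower in cortical neurons and 1 higher. When the clusters are read by paralogue group, the number that gives a gene's place along its cluster, the calls lay in groups 1 to 9: of 25 such genes 20 were lower, with a median of -2.94, and their TN day 6 means ran from 4.86 to 11.12. Of these 25, 21 were above the dim level at TN day 6. In groups 10 to 13, 0 of 12 genes were called by limma in either direction and 0 had an unadjusted p under 0.05, the median was 0.02, the TN day 6 means ran from 4.30 to 5.90 and 1 gene was above the dim level. This split was chosen after the values were seen. Hoxd1, the gene called higher, had overlapping arrays, was dim on both sides (0.31 ± 0.12, adjusted p = 0.0454) and lost its call under 7 other settings. In group 9, Hoxa9, Hoxc9 and Hoxd9 were dim at TN day 6 (5.57, 5.62 and 5.53) and were not called (adjusted p = 0.249, 0.257 and 0.856), unlike Hoxb9. Hoxc8 and Hoxa10, on either side of group 9, were at 6.70 and 4.77 at TN day 6 and were not called (adjusted p = 0.323 and 0.672).

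**Figure D3:**
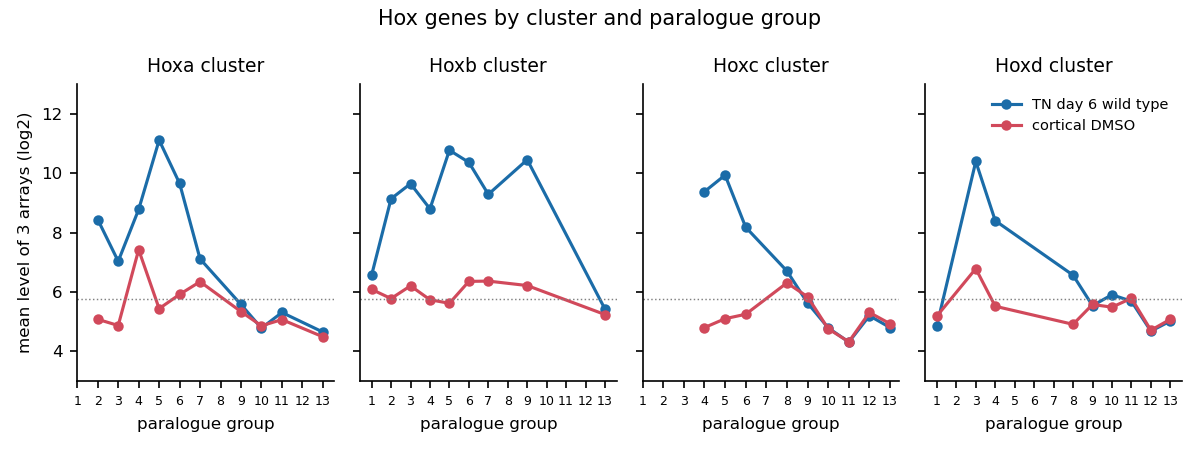
Mean log2 level of 3 arrays for each measured Hox gene (vertical) by paralogue group (horizontal), in 4 panels for the Hoxa, Hoxb, Hoxc and Hoxd clusters, with the dotted line at 5.76; levels of different genes come from different probes and are to be compared only between the 2 lines. For 20 of the 25 genes of groups 1 to 9 the TN day 6 point is higher and the gene was called, as for Hoxa5 at 11.12 against 5.43, and 0 of the 12 genes of groups 10 to 13 were called.

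Of the microRNA genes inside the Hox clusters, Mir10a and Mir10b, picked for their values, were called lower in cortical arrays. Mir196a-1, Mir196a-2, Mir196b and Mir615, which also lie there, were not called (adjusted p = 0.475, 0.0531, 0.894 and 0.976). Mir10b was at 5.69, 5.72 and 5.67 at TN day 6 and at 3.18, 3.36 and 3.32 in cortical arrays (-2.40 ± 0.18, adjusted p = 3.64e-10). Mir10a was at 5.05, 5.35 and 5.00 against 3.43, 3.42 and 3.55 (-1.67 ± 0.23, adjusted p = 3.25e-06). All levels of both lay in the dim range of the larger genes, but the groups did not overlap, as for 31.8% of all genes in this direction.

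Transcription factors of the hindbrain and spinal cord gave 20 lower and 2 higher of 40, with a median of -0.42. Lhx1, a LIM factor of spinal and Purkinje neurons, was at 5.40, 5.33 and 4.94 in cortical arrays and at 9.60, 9.74 and 9.69 at TN day 6 (-4.45 ± 0.48). Lbx1, a factor of dorsal spinal interneurons, was at 6.64, 6.86 and 6.74 against 9.18, 9.46 and 9.32 (-2.58 ± 0.11), and its corepressor Skor1 at 5.70, 5.66 and 5.84 against 9.85, 9.95 and 9.74 (-4.11 ± 0.15). Pou4f1, of sensory and dorsal neurons, differed by -4.03 ± 0.20. For each of these genes the groups were apart by more than 2 log2 units. Mnx1, the motor neuron factor, was dim on both sides (4.55, 4.47 and 4.25 against 4.48, 4.42 and 4.19; adjusted p = 0.769), and Isl1, another motor neuron factor, differed by -0.66 ± 0.20.

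Midbrain and diencephalic factors were mostly not called, and their share called lower (17.9%) was near that of all genes (20.7%). Of 28, 5 were lower and 0 higher: Gbx2 (-1.90 ± 0.23), Pax3 (-1.90 ± 0.21), Irx3 (-1.75 ± 0.17), Irx5 (-1.53 ± 0.15) and En2 (-0.65 ± 0.12), of which the last was dim on both sides and is left out by a filter on dim genes. Otx2, the factor of forebrain and midbrain, was dim on both sides, at 5.10, 5.19 and 5.08 against 5.03, 5.04 and 5.19. Retinoic acid genes gave 4 higher (21.1%) and 7 lower (36.8%) of 19, against 20.5% and 20.7% of all genes. The binding protein Crabp1 (7.08, 6.94 and 7.06 against 9.69, 9.82 and 9.74; -2.72 ± 0.18), Crabp2 (-1.32 ± 0.19) and the receptor Rarb (-1.43 ± 0.25), itself a retinoic acid target, were lower in cortical arrays. Rxrg (1.54 ± 0.11), Dhrs3 (1.08 ± 0.15) and the degrading enzyme Cyp26b1 (0.81 ± 0.14) were higher.

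Genes listed for Cajal-Retzius cells, the reelin-secreting cells of the outermost cortex, were mostly higher in the ES-derived neurons: of 13, 9 were lower and 2 higher in cortical arrays (median -2.18). Reln was at 9.55, 9.44 and 9.40 in cortical arrays and at 11.74, 11.71 and 11.71 at TN day 6. Ebf3 was at 5.45, 5.39 and 5.24 against 10.44, 10.41 and 10.38 (-5.05 ± 0.21), and Zic1 at 6.43, 6.45 and 6.33 against 10.83, 10.85 and 10.86 (-4.44 ± 0.25). Of the 9 lower members, Lhx1, Lhx5, Ebf2 and Zic1 are also known in hindbrain and spinal neurons, and which cells the RNA came from was not tested. Trp73, a more restricted gene of Cajal-Retzius cells, was just above the dim level and was not called (5.87, 5.90 and 5.90 against 6.05, 6.03 and 6.20; adjusted p = 0.115). Calb2 (1.52 ± 0.17) and Cxcr4 (1.0 ± 0.30) were higher in cortical neurons, and Cxcr4 was not called against TN day 5 DMSO (0.07, adjusted p = 0.876). Of 21 genes of neural crest and peripheral neurons 6 were lower (28.6%) and 2 higher (9.52%), against 20.7% and 20.5% of all genes. Among the 6, Tfap2b was at 5.00, 5.04 and 5.08 against 9.96, 10.15 and 10.01 (-5.00 ± 0.16), and Tfap2a differed by -3.33 ± 0.17. Sox10, of neural crest and oligodendrocytes, was higher by 0.45 ± 0.10.

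Transmitter identity was mixed on both sides. Slc17a7, the vesicular glutamate transporter of the cortex (probe set 10552857), was at 7.64, 7.62 and 7.68 in cortical arrays and at 5.73, 5.68 and 5.77 at TN day 6, with a mean in the dim range (1.92 ± 0.16, adjusted p = 1.77e-09). Slc17a6, the transporter of subcortical and of young glutamatergic neurons (probe set 10553501), was high on both sides, with 9.54, 9.53 and 9.70 against 10.40, 10.51 and 10.44 (-0.86 ± 0.23, adjusted p = 0.00408). It was not called against TN day 5 DMSO (-0.34, adjusted p = 0.286). Thus the cortical arrays carried both transporters above the dim level and the TN day 6 arrays 1 of them.

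Gad1, which makes GABA, was high in both cultures, at 10.36, 10.39 and 10.41 against 10.10, 10.09 and 10.17 (0.27 ± 0.15, adjusted p = 0.159). Gad2 was at 9.36, 9.33 and 9.33 against 9.64, 9.58 and 9.64 (-0.28 ± 0.11, adjusted p = 0.0436), a call that each of the 6 fits with an array removed lost, as did centring, and its difference from TN day 5 DMSO was 0.79. The vesicular GABA transporter Slc32a1 was at 8.33, 8.19 and 8.23 against 8.06, 8.33 and 8.13 with overlapping arrays (adjusted p = 0.617), and was higher by 1.20 than at TN day 5 with DMSO. The glycine transporter Slc6a5, of hindbrain and spinal inhibitory neurons (probe set 10553430), was clearly ES-derived, at 5.63, 5.66 and 5.81 against 8.95, 9.10 and 9.02 (-3.32 ± 0.15, adjusted p = 8.28e-14). Glra1, the glycine receptor subunit of the adult spinal cord, moved with it (-2.16 ± 0.22), whereas the β subunit Glrb was higher in cortical neurons (1.93 ± 0.20). Somatostatin, Sst, was high on both sides at 10.87, 10.97 and 11.04 against 10.01, 10.03 and 10.04 (0.93 ± 0.11). Calb1, a calcium buffer of some interneurons and projection neurons, was at 7.70, 7.5 and 7.37 against 4.80, 4.51 and 4.46 (2.93 ± 0.21).

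Of 19 GABAergic and glycinergic neuron genes 11 were higher and 3 lower (median 0.41). The largest rise, Slc6a11 (10.20, 10.14 and 10.22 against 6.66, 6.72 and 6.71; 3.49 ± 0.12), is a GABA transporter known from astrocytes. Of 17 cholinergic and monoaminergic genes 0 were higher and 2 lower; Chat, Th and Tph2 did not pass the test, with Chat at 4.84, 5.03 and 4.78 against 4.89, 4.76 and 4.91. Neuropeptide genes gave 8 higher and 7 lower of 28, and 6 and 7 against TN day 5 DMSO. Cck was at 9.96, 9.99 and 9.93 against 5.21, 5.16 and 5.46 (4.68 ± 0.23), and Nts was higher by 1.55 ± 0.12. Tac1, which encodes substance P, was at 5.79, 5.73 and 6.21 in cortical arrays, at 10.26, 10.18 and 10.16 at TN day 6 (-4.29 ± 0.18, adjusted p = 4.07e-14) and at 5.27 and 6.11 at TN day 5 with DMSO. The TN day 5 arrays thus lay at the cortical level, and against them Tac1 was not called (0.22, adjusted p = 0.394).

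The mean level of 27 pan-neuronal genes was between 10.45 and 10.49 in cortical DMSO arrays and between 10.46 and 10.47 at TN day 6. Single genes were called in both directions. Dcx, of young migrating neurons, was at 12.18, 12.14 and 12.10 against 12.19, 12.19 and 12.18 (adjusted p = 0.757), and Tubb3, a neuronal tubulin, at 12.12, 12.04 and 12.04 against 12.22, 12.22 and 12.20 (-0.15 ± 0.11, adjusted p = 0.29). Map2, Snap25 and Syn1 did not pass the test either (differences of -0.24, 0.16 and 0.13). Of 27 pan-neuronal genes 5 were higher and 7 lower, 10 and 7 with centred arrays, and 9 and 4 against TN day 5 DMSO. Rbfox3, Elavl2 and Elavl4 were among the 7 lower against TN day 6. The falls were led by neurofilaments: Nefl was at 8.79, 8.78 and 8.94 against 10.30, 10.24 and 10.18 (-1.40 ± 0.12), and Ina at 11.20, 11.16 and 11.14 against 12.37, 12.36 and 12.30 (-1.18 ± 0.14). Thy1, a surface protein of maturing neurons, was higher at 8.27, 8.32 and 8.33 against 6.31, 6.44 and 6.64 (1.84 ± 0.30).

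Genes of immature and migrating neurons gave 2 higher and 11 lower of 25 against TN day 6, with Sox11 at -0.81 ± 0.15 and Igfbpl1 at 7.91, 7.67 and 7.64 against 10.25, 10.37 and 10.22 (-2.54 ± 0.15). Against TN day 5 DMSO the majority turned, with 8 higher and 4 lower. Igfbpl1 kept its direction there (-0.96), and Tubb2a, a tubulin of growing axons, was higher by 1.12 ± 0.17 against TN day 6 and by 2.02 against TN day 5 DMSO.

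Postsynaptic genes were more often higher than lower in cortical DMSO neurons. Of 35 postsynaptic scaffold and signalling genes 22 were higher and 3 lower (median 0.56), and 23 and 3 against TN day 5 DMSO. Camk2a was at 9.11, 9.09 and 9.17 against 6.44, 6.50 and 6.20, Camk2b at 10.61, 10.64 and 10.63 against 8.92, 8.97 and 8.90 (1.70 ± 0.09), and the scaffold Dlg2 at 10.72, 10.53 and 10.52 against 8.67, 8.74 and 8.79 (1.86 ± 0.14). For none of these did the groups overlap, as for 27.6% of all genes in this direction. The central scaffold of excitatory synapses, Dlg4, did not pass the test (10.59, 10.55 and 10.66 against 10.25, 10.40 and 10.31; 0.28 ± 0.15, adjusted p = 0.147). Homer3, a Homer protein known from Purkinje cells, was lower (-1.75 ± 0.10), as was Nlgn2, the neuroligin of inhibitory synapses (-0.83 ± 0.10).

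Glutamate transporters and receptors gave 13 higher and 5 lower of 26. The metabotropic receptor Grm5 was at 11.62, 11.42 and 11.47 against 8.15, 8.45 and 8.48 (3.14 ± 0.20), and the NMDA receptor subunit Grin2b at 10.39, 10.22 and 10.24 against 8.76, 8.77 and 8.80 (1.5 ± 0.13). The kainate subunit Grik3 went the other way (-1.44 ± 0.15) and was not called against TN day 5 DMSO (-0.22, adjusted p = 0.307). Of 15 GABA receptor and chloride transporter genes 9 were higher and 0 lower (median 0.85). Gabra5 was at 10.67, 10.59 and 10.67 against 7.12, 7.36 and 7.30 (3.38 ± 0.20), Gabrb1 at 9.16, 8.76 and 8.87 against 4.99, 5.30 and 4.93 (3.86 ± 0.22), and Gabra2 differed by 2.41 ± 0.14. Slc12a5, the chloride exporter whose rise marks mature inhibition, was not called, at 9.39, 9.27 and 9.28 against 9.50, 9.57 and 9.48 (-0.20 ± 0.11, adjusted p = 0.168).

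The release machinery was divided. Of 40 synaptic vesicle and release genes 18 were higher and 10 lower (median 0.26). Sv2b was at 8.75, 8.65 and 8.87 against 7.15, 7.16 and 7.0 (1.65 ± 0.14) and its family member Sv2c at 6.74, 6.75 and 6.68 against 8.58, 8.53 and 8.4 (-1.78 ± 0.16). Among the calcium sensors Syt5 was higher (1.56 ± 0.16) and Syt2, the sensor of fast hindbrain and spinal synapses, lower (-1.51 ± 0.13). The complexins Cplx1 (1.64 ± 0.13) and Cplx2 (1.35 ± 0.10) were higher. Voltage-gated ion channels gave 20 higher and 8 lower of 38 against TN day 6 and 13 and 7 against TN day 5 DMSO. The potassium channel Kcnq5 was at 9.57, 9.49 and 9.62 against 6.77, 6.96 and 7.10 (2.61 ± 0.16). The calcium channel subunits Cacna2d1 (2.00 ± 0.17) and Cacna2d2 (-2.86 ± 0.16) moved in opposite directions. Immediate early genes gave 5 higher and 6 lower of 22, 7 and 5 with quantile normalization and 9 and 5 with centring, with Fos at -0.67 ± 0.16, Egr1 at 0.50 ± 0.14 and Arc not called (adjusted p = 0.879).

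Maturity was read against the days of ES-derived culture in arrays that share none with the comparison used: wild-type TN day 6 against TN day 2, set beside cortical DMSO against TN day 5 DMSO. Between TN day 2 and TN day 6, 16.7% of genes were called higher and 11.9% lower, 357 at least 2-fold higher (1.79%) and 562 at least 2-fold lower (2.82%). Of the 357 that had risen with culture, 165 (46.2%) were higher in cortical neurons than at TN day 5 and 77 (21.6%) lower. Of the 562 that had fallen, 212 (37.7%) were higher and 121 (21.5%) lower, while 24.4% and 20.4% of all genes were. Genes that rose and genes that fell with culture were thus both more often higher than lower in cortical neurons. By calls at any fold, 29 of 40 synaptic vesicle genes rose and 0 fell over the culture days, and 0 of 31 cell cycle genes rose and 31 fell.

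Cell cycle genes were higher in the cortical cultures: 26 of 31 were called higher and 1 lower (median 0.88). The proliferation marker Mki67 was at 7.84, 7.85 and 7.66 against 6.34, 6.45 and 6.33 (1.41 ± 0.18, adjusted p = 1.89e-06). Top2a, the topoisomerase II of dividing cells, was at 8.76, 8.68 and 8.71 against 6.62, 7.11 and 6.69 (1.91 ± 0.18), and Cdk1 at 7.64, 7.87 and 7.73 against 5.84, 6.25 and 6.23 (1.64 ± 0.18). The groups did not overlap for these 3 genes, as for 27.6% of all genes in this direction. The mean level of the 31 genes was between 7.54 and 7.57 in cortical DMSO, between 6.57 and 6.71 at TN day 6, between 6.86 and 7.37 at TN day 5 with DMSO, and between 8.41 and 8.68 at TN day 2. Against TN day 5 DMSO 17 were higher and 1 lower. Top2b, the topoisomerase of neurons that the series is about, was not called (10.92, 10.77 and 10.88 against 11.32, 11.19 and 11.15; -0.36 ± 0.20, adjusted p = 0.159).

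Of 22 genes of neural progenitors and radial glia 9 were higher and 4 lower. Sox2 was at 10.07, 10.10 and 10.08 against 8.24, 8.21 and 8.19 (1.87 ± 0.22) and Pax6 at 7.76, 7.76 and 7.92 against 6.53, 6.62 and 6.39 (1.30 ± 0.24). Ptprz1 (2.80 ± 0.30) and the matrix protein Tnc (2.50 ± 0.39), both of radial glia and of astrocytes, were the largest rises. Nes overlapped between the groups (7.59, 7.72 and 7.51 against 7.27, 7.67 and 7.22; adjusted p = 0.532). Msi1 was lower by a difference of -1.18 ± 0.15.

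Astrocyte genes were mostly higher in cortical neurons, with 18 of 21 higher and 1 lower and a median of 2.30; of the 21, 2 were dim in cortical arrays and 6 at TN day 6. Aldh1l1, a folate enzyme that marks astrocytes (probe set 10540034), was at 9.20, 9.13 and 9.32 against 5.87, 6.03 and 5.92 (3.27 ± 0.16, adjusted p = 5.35e-13). Apoe, the lipid carrier made by astrocytes and microglia (probe set 10560624), was at 11.44, 11.41 and 11.50 against 8.08, 8.08 and 7.85 (3.45 ± 0.09), and Mlc1, a protein of astrocyte endfeet, at 9.93, 9.78 and 9.98 against 5.89, 5.98 and 6.17 (3.89 ± 0.15). Every cortical array lay above every TN day 6 array for these genes by more than 2 log2 units. The markers of later astrocytes were nearer the dim range: Aqp4 was at 6.55, 6.41 and 6.53 against 4.34, 4.24 and 4.42 (2.16 ± 0.10), and Gfap at 6.53, 6.14 and 6.16 against 5.15, 5.08 and 5.11 (1.16 ± 0.15). The exception was the glutamate transporter Slc1a2, at 9.27, 9.02 and 9.06 against 9.49, 9.53 and 9.52 (-0.40 ± 0.10). Averaged over the 21 genes, the level was between 8.59 and 8.68 in cortical DMSO arrays and between 6.67 and 6.72 at TN day 6. Against TN day 5 DMSO 15 were higher and 0 lower (median 1.77).

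Some early genes of the oligodendrocyte lineage were higher in cortical DMSO arrays, while Cspg4 and Nkx2-2 of the same list were not called. Over the 21 genes the median difference was 0.13, and 12 were not called. Olig1 was at 8.56, 7.96 and 7.68 against 5.56, 5.31 and 5.23 (2.70 ± 0.18), Olig2 at 7.64, 7.77 and 7.86 against 4.96, 4.85 and 5.42 (2.68 ± 0.17) and Pdgfra, the receptor of the precursors, at 9.67, 9.52 and 9.52 against 6.29, 6.34 and 6.64 (3.15 ± 0.41). Olig1 and Olig2 were in the dim range at TN day 6 and Pdgfra just above it. Mbp, of myelin, overlapped (6.85, 6.68 and 6.95 against 6.86, 6.92 and 6.93; adjusted p = 0.553). Cnp, another gene of myelin, was among the 7 of the 21 genes called higher, Ugt8a and Mal were the 2 called lower, and 7 were dim on both sides.

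Microglial genes were higher as well, with 11 of 21 called higher and 0 lower (median 0.77). C1qc, a complement chain made by microglia in the brain, was at 7.28, 7.45 and 7.32 against 5.34, 5.28 and 5.18 (2.08 ± 0.18). Ctss, a lysosomal protease, was at 7.23, 7.02 and 7.47 against 5.14, 5.03 and 5.23 (2.11 ± 0.16), and Lyz2, lysozyme of myeloid cells, at 7.0, 6.71 and 6.94 against 4.23, 4.48 and 4.57 (2.46 ± 0.54). P2ry12, a marker of mature microglia, was dim on both sides (adjusted p = 0.946). At TN day 6, 16 of the 21 genes were dim, and in cortical arrays 8 were.

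Other non-neuronal cell types gave few calls. Many of their genes were dim on both sides: 13 of 22 endothelial and mural, 7 of 11 erythroid and 6 of 9 choroid plexus genes. Of 22 endothelial and mural genes 0 were called by limma, and 4 had an unadjusted p under 0.05, all lower in cortical arrays. Of 11 erythroid genes 0 were called and 3 had such a p, and of 9 choroid plexus genes 0 and 1. In cortical DMSO against TN day 5 DMSO, 4, 4 and 1 genes of these lists were lower and 0 higher. Pecam1, an adhesion protein of vessel walls, was dim on both sides, at 5.39, 5.31 and 5.28 against 5.73, 5.73 and 5.62 (adjusted p = 0.0942). Of 25 mesenchymal and fibroblast genes 8 were lower (32.0%) and 0 higher in cortical arrays, where 20.7% and 20.5% of all genes were called. Dcn, 1 of the 8, lost its call in 9 other settings. Col3a1, a collagen of connective tissue, was at 6.42, 6.53 and 6.61 against 7.77, 7.96 and 7.92 (-1.36 ± 0.33), and at 10.19 and 10.43 at TN day 5 with DMSO, from which it differed by -3.79. Against TN day 5 DMSO 16 of the 25 were lower, where 20.4% of all genes were. The mean level of the list was between 5.79 and 5.83 in cortical DMSO, between 6.25 and 6.32 at TN day 6 and between 7.13 and 7.45 at TN day 5 with DMSO. Pluripotency genes gave 2 higher (Klf5, 1.26 ± 0.12, and Klf4, whose call was lost in 3 other settings) and 2 lower (Trim71, -1.02 ± 0.14, and Esrrb, -0.90 ± 0.21) of 28. Pou5f1, the core pluripotency factor, was at 4.24, 4.24 and 4.27 in cortical arrays and at 4.24, 4.24 and 4.17 at TN day 6 (adjusted p = 0.906).

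**Figure D4:**
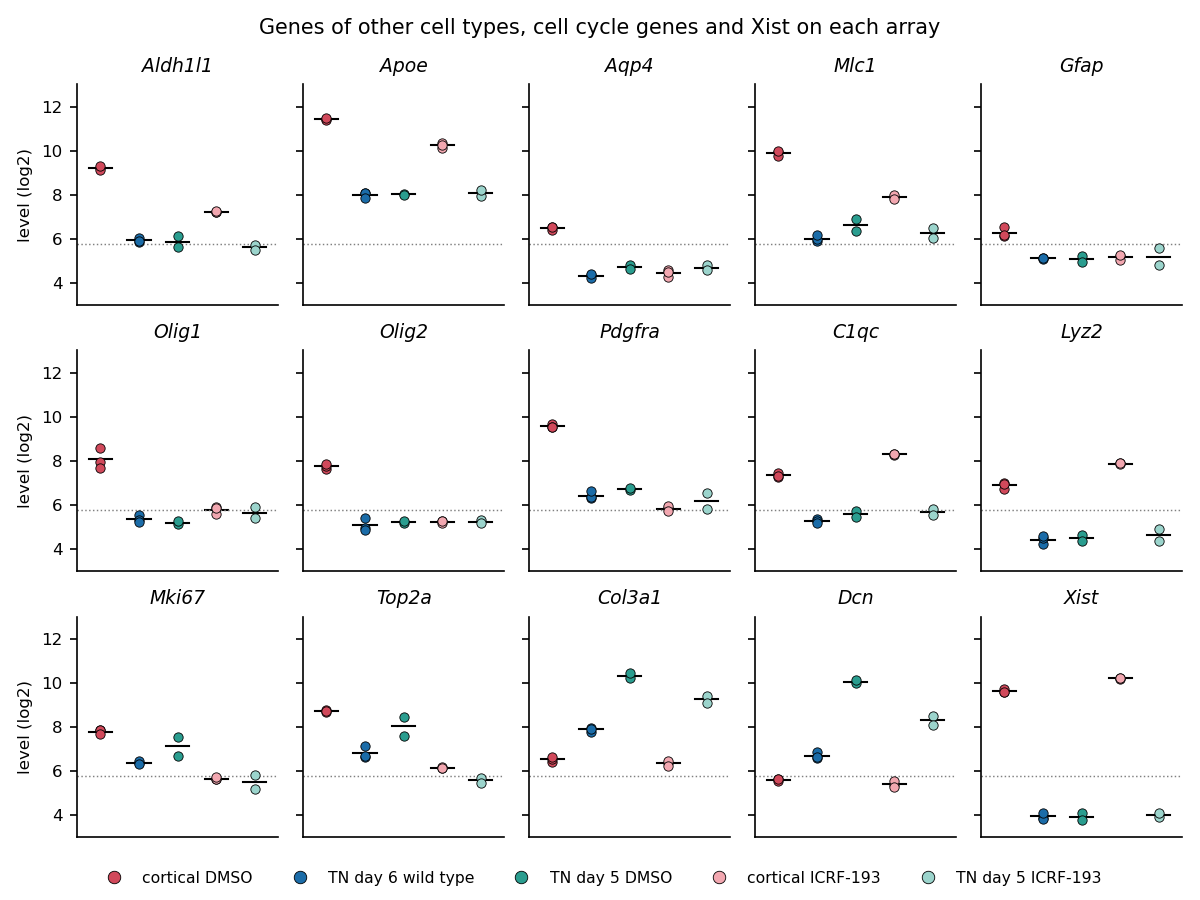
Log2 level of 15 genes (astrocytes, oligodendrocyte precursors, microglia, dividing cells, connective tissue and Xist) on each array of the 5 neuron groups; points are arrays, bars are group means and the dotted line is at 5.76. Aldh1l1, Apoe, Mlc1, Olig1, Olig2 and Pdgfra are highest in cortical DMSO, C1qc and Lyz2 are higher still in cortical ICRF-193, and Col3a1 and Dcn are highest at TN day 5 with DMSO.

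The glial and dividing-cell genes differed between the sources along with the neuronal genes above, and their part in those differences was not tested. Their levels with ICRF-193 follow, where effects of the drug and of cell content cannot be told apart. In cortical neurons given ICRF-193 the mean level of the 21 astrocyte genes was between 7.20 and 7.22, that of the 31 cell cycle genes between 6.37 and 6.42 and that of the 21 oligodendrocyte genes between 5.83 and 5.89, all lower than in cortical DMSO arrays and, for the last 2 lists, near or below the TN day 6 values. The arrays with ICRF-193 share none with the comparison of cortical DMSO and TN day 6, so the 2 contrasts of source can be set against each other.

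With ICRF-193 on both sides 8281 genes differed between cortical neurons and TN day 5 cells (41.5%; 5376 without TN day 5 ICRF-193 replicate 1), 746 at least 2-fold higher (3.74%) and 295 at least 2-fold lower (1.48%). Centring gave 6396 higher and 1610 lower there, from 4635 and 3646. Of the 938 genes at least 2-fold higher in cortical DMSO than at TN day 6, 680 (72.5%) were called higher with ICRF-193 too and 19 were called lower, where 23.2% of all genes were called higher. At least 2-fold in both were 417, which is 44.5% of the 938 and 55.9% of the 746. Of the 499 at least 2-fold lower, 359 (71.9%) were called lower with ICRF-193 and 11 higher, where 18.3% of all genes were called lower. The 179 at least 2-fold lower in both were 35.9% of the 499 and 60.7% of the 295.

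Regional differences were present with ICRF-193 too. Tbr1 stood at 11.22, 11.14 and 11.02 in cortical neurons and at 5.32 and 5.48 at TN day 5 (5.73 ± 0.14), Neurod6 differed by 6.83 ± 0.13, Dlx1 by 3.81 ± 0.22 and Hoxa5 by -6.16 ± 0.20. Other regional genes differed between the contrasts, with interactions that were called: Emx1 went from 1.0 with DMSO to 0.14 with ICRF-193, Ebf1 from -5.03 to -1.78, Zfhx3 from -4.07 to -1.28 and Tshz2 from -2.68 to -0.57. Bcl11a went from -0.25 to 1.26 and Isl1 from -0.41 to 0.82, which is a change of sign. Of the 37 Hox genes 22 were lower and 0 higher, and of the 37 telencephalic factors 25 were higher and 6 lower. Microglial genes were called higher in 13 of 21 and lower in 1 (median 1.06). The astrocyte list gave 10 higher and 1 lower (median 0.32), the oligodendrocyte list 2 and 5, the cell cycle list 6 and 4, and the ion channel list 9 and 15. Glutamate transporters and receptors gave 6 higher and 8 lower of 26 (median -0.07) and the vesicle and release list 14 and 14. Postsynaptic genes were higher in 18 and lower in 7 of 35, against 23 and 3 with DMSO on both sides. The difference between the DMSO and the ICRF-193 contrast was itself called for 871 genes (4.37%), positive for 2.68% of all genes and negative for 1.69%, and at least 2-fold for 1.24% and 0.662%.

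**Figure D5:**
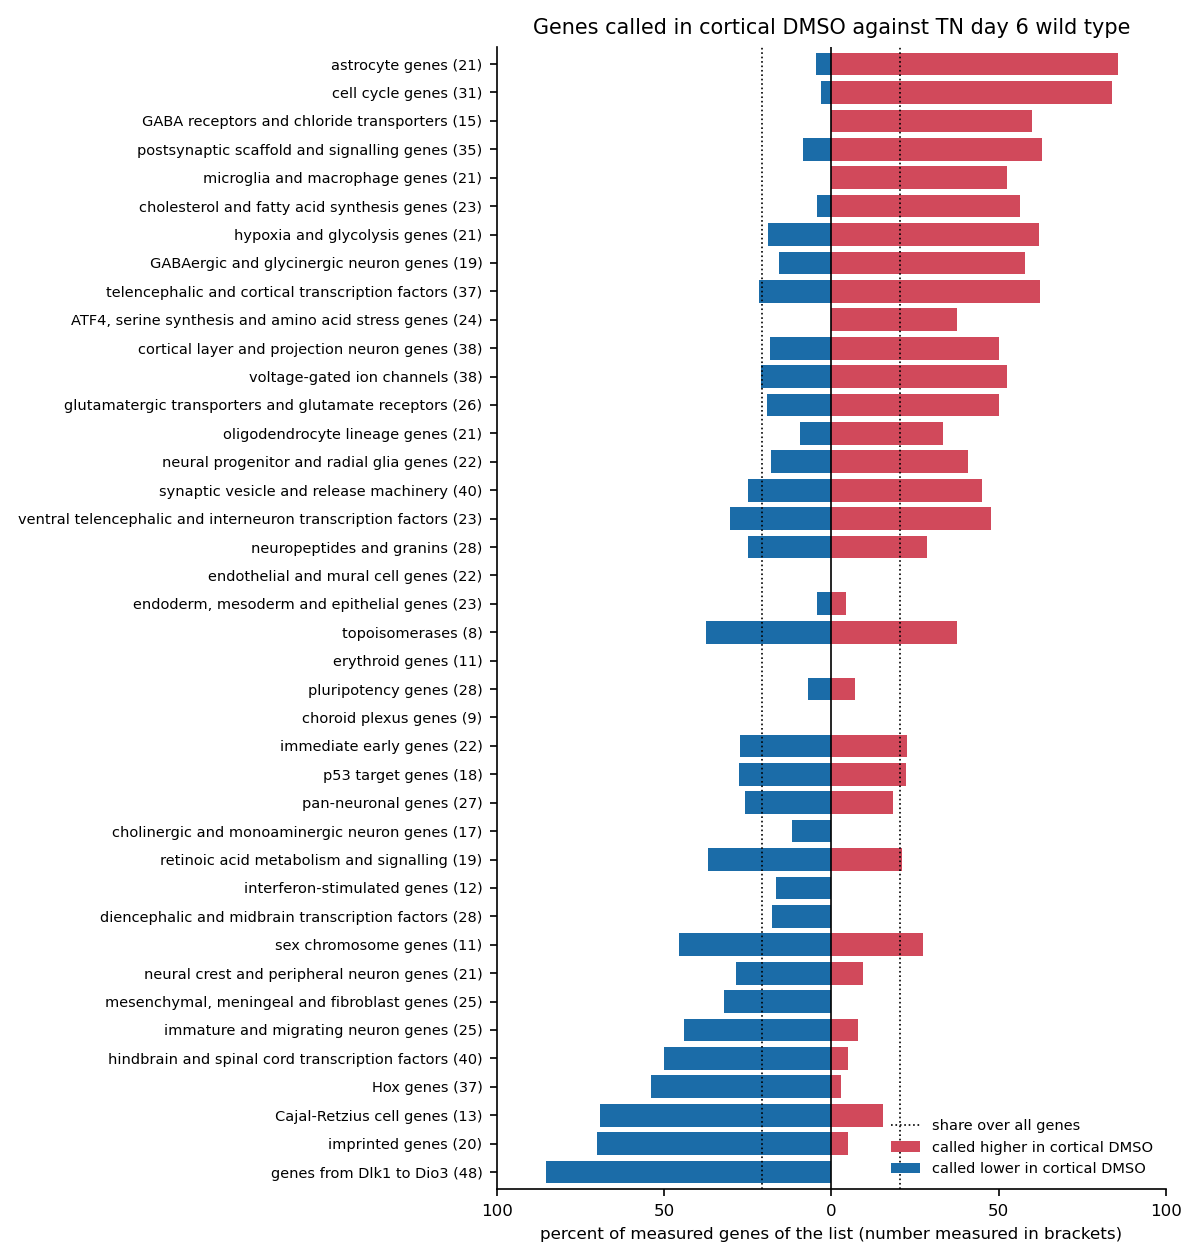
For each of 40 gene lists, the percent of its measured genes called higher (to the right) and lower (to the left) in cortical DMSO against TN day 6 wild type, with the number of measured genes in brackets and dotted lines at the shares over all genes, 20.5% and 20.7%. Astrocyte and cell cycle genes extend furthest to the right (18 of 21 and 26 of 31) and genes from Dlk1 to Dio3 furthest to the left (41 of 48).

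Imprinted genes, which are active from 1 parental copy and many of which act on growth, were mostly lower in cortical neurons: 14 of 20 were lower and 1 higher (median -0.90). Peg10, derived from a retrotransposon, was at 7.60, 7.48 and 7.37 against 11.24, 11.33 and 11.31 (-3.81 ± 0.13, adjusted p = 1.68e-15). The growth inhibitor Cdkn1c was at 7.75, 7.68 and 7.74 against 10.60, 10.67 and 10.54 (-2.88 ± 0.15), and Magel2 differed by -1.94 ± 0.14. The growth factor Igf2 was at 6.16, 6.35 and 5.98 against 7.54, 7.83 and 7.56 (-1.48 ± 0.40) and at 9.77 and 10.12 at TN day 5 with DMSO. Grb10, the 1 gene called higher (1.26 ± 0.19), was not called against TN day 5 DMSO, where it stood at 8.50 and 8.91 (adjusted p = 0.3).

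The genes between Dlk1 and Dio3, an imprinted domain whose maternal copy makes long RNAs and microRNAs, were lower almost throughout. Of 48 measured genes 41 were called lower and 0 higher (median -0.81). Among them were the protein-coding Dlk1 (6.65, 6.95 and 6.21 against 7.85, 8.11 and 8.07; -1.41 ± 0.31), the long RNA Meg3 (11.29, 11.61 and 11.66 against 12.28, 12.23 and 12.25; -0.73 ± 0.11) and Rian (-1.25 ± 0.22). Of its 40 microRNA genes 34 were lower and 0 higher, whereas of 256 microRNA genes elsewhere 86 were lower and 6 higher (median -0.22). Mir377, whose seeds are printed above, was at 5.35, 5.71 and 5.75 against 7.40, 7.31 and 7.25 (-1.72 ± 0.16, adjusted p = 1.73e-08). Mir382 was at 6.81, 7.19 and 7.29 against 8.61, 8.71 and 8.70 (-1.58 ± 0.20). Both were below every TN day 6 array, as were 31.8% of all genes. Against TN day 5 DMSO 43 of the 48 genes were lower and 0 higher (median -1.12), and with ICRF-193 on both sides 29 and 0 (median -0.57). Genes of 1 primary transcript are not independent of each other, and the set was chosen after its values were seen.

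Sex-linked genes differed between the sources. Xist, the RNA that silences 1 X chromosome in female cells (probe set 10606178), was at 9.56, 9.73 and 9.58 in cortical arrays and in the dim range at 3.88, 3.82 and 4.09 at TN day 6 (5.69 ± 0.13, adjusted p = 2.53e-18). The Y-linked genes Eif2s3y (8.60, 8.62 and 8.67 against 9.42, 9.32 and 9.36; -0.74 ± 0.13) and Uty (-0.53 ± 0.16) were lower in cortical arrays but well above the dim level. Kdm5d, also Y-linked, ran the other way (6.49, 6.81 and 6.86 against 4.44, 4.72 and 4.85; 2.05 ± 0.16), with its TN day 6 levels in the dim range. Cortical arrays thus carried Xist and Y-linked RNA together, and the TN day 6 arrays RNA of Eif2s3y and Uty with Xist and Kdm5d in the dim range. The sexes of the embryos are not given in the labels.

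Of 23 cholesterol and fatty acid synthesis genes 13 were higher and 1 lower (median 0.39), and 20 and 0 against TN day 5 DMSO. The desaturase Scd1 was at 10.09, 10.12 and 10.38 against 7.36, 7.83 and 7.59 (2.60 ± 0.23), and the sterol enzyme Nsdhl rose by 1.06 ± 0.13. Of 21 hypoxia and glycolysis genes 13 were higher and 4 lower: lactate dehydrogenase Ldha was at 11.54, 11.46 and 11.78 against 8.66, 9.0 and 8.96 (2.72 ± 0.17), Pdk1 differed by 2.36 ± 0.14 and Ndrg1 was at 9.78, 9.88 and 9.99 against 6.37, 6.33 and 6.24 (3.57 ± 0.16). The hypoxia sensor Egln1 was lower (-0.83 ± 0.19). ATF4 and amino acid genes gave 9 higher and 0 lower of 24, led by the arginine and lysine transporter Slc7a3 (8.74, 9.02 and 9.42 against 5.61, 5.72 and 6.24; 3.20 ± 0.30), with Phgdh, the first enzyme of serine synthesis, at 1.23 ± 0.12. That list gave 6 higher and 4 lower against TN day 5 DMSO (median 0.07), and the hypoxia list 9 and 2. Stress markers Ddit3 and Trib3 were not called (adjusted p = 0.0749 and 0.388). Of 18 p53 targets 4 were higher and 5 lower, 6 and 4 with centring, and Mdm2 was lower (-0.93 ± 0.10). Of 12 interferon-stimulated genes 0 were higher and 2 lower, Rsad2 and Mx1, both dim on both sides and so left out by a filter on dim genes; with quantile normalization, under which Mx1 lost its call, 2 were higher and 1 lower. Ifit1 was not called (adjusted p = 0.387).

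Genes that differed at least 2-fold were longer than genes in general. The median span from transcript start to end was 35.7 kb for the 938 genes at least 2-fold higher and 33.6 kb for the 499 at least 2-fold lower, against 17.7 kb for all genes, and spans over 100 kb made up 25.7%, 29.6% and 11.5%. All genes here include 6327 that were dim on both sides. Spans were not compared with those of genes above the dim level alone, so length and expression cannot be told apart. Where the lower side lay in the dim range, the fold change rests on a level that an unexpressed gene can have: this held for 256 of the 938 (27.3%) and 70 of the 499 (14%).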

How the data were processed

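RNA of mouse cells was measured on Affymetrix whole-transcript arrays. The authors deposited 1 table of log2 expression values, with 35556 probe sets in lines and 28 arrays in columns. The submitters' processing notes name oligo 1.14.0, and its settings are not given in these sources. The logarithm base was read as 2 from the range of the values, 1.963 to 13.993, and no further normalization was applied. Of the probe sets 21789 carried 1 gene symbol, 1621 several and 12146 no entry; those with 1 symbol gave 19938 genes, with the probe set of highest mean for the 999 genes that had several.

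Group means of all 12 groups were fitted with limma 3.58.1 in R 4.3.3 (16 residual and 4.87 prior degrees of freedom), with two-sided moderated tests and Benjamini-Hochberg adjustment over all genes; a call is an adjusted p under 0.05. The script was tested on simulated data. The median SE of a difference was 0.118 for 3 against 3 arrays, and the number of arrays limits the precision. Lists (39, with 885 of 960 symbols measured, besides the genes from Dlk1 to Dio3) are described by counts and medians, with no test of a list. The lists, the comparisons and the rule for naming genes were chosen with earlier results of these data known. Named are the key genes of each list, up to 3 called genes with the largest rise and 3 with the largest fall in each list, all called genes of a list with 5 or fewer calls, and the 15 largest rises and falls among non-overlapping genes, without predicted genes, odorant receptors and small RNA genes. Alternatives were quantile normalization, median centring, array weights, a trended prior, the mean of probe sets, a replicate block, a fit of the compared arrays alone, a filter on dim genes and leaving out each array. Promoter composition was not compared between gene sets, since 78.3% of the tested genes had a promoter window. Gene spans come from RefSeq annotation and were found for 99.9% of the genes; the files name no genome build.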

Additional observations from a re-analysis of the deposited data

Results flagged for a closer look

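The difference between cortical and ES-derived neurons was not the same with DMSO as with ICRF-193. For 871 of 19938 genes (4.37%) the source difference with DMSO minus that with ICRF-193 was called in limma's interaction test, 535 positive and 336 negative. Among the named genes 70 passed it, 42 positive and 28 negative, and some of them follow; each value is the source difference with DMSO minus the one with ICRF-193 on the log2 scale, from 3 and 2 arrays on each side.

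Several genes of astrocytes and of the oligodendrocyte lineage had larger source differences with DMSO. Of the microglial list, 9 genes were called higher with DMSO and 13 with ICRF-193. These are counts from separate contrasts, and its named genes Lyz2, Ctss and C1qc were not among those that passed the interaction test. The interaction was 1.72 ± 0.26 for Aldh1l1 (3.34 with DMSO, 1.62 with ICRF-193; adjusted p = 0.000153), 1.26 ± 0.15 for Apoe, 1.66 ± 0.24 for Mlc1 and 1.22 ± 0.24 for Gfap (adjusted p = 0.00258). In the oligodendrocyte lineage it was 2.73 ± 0.29 for Olig1 (2.87 and 0.15), 2.54 ± 0.27 for Olig2 and 3.23 ± 0.65 for Pdgfra (2.86 and -0.37; adjusted p = 0.00339). The desaturase Scd1 gave 2.43 ± 0.36 and the glutamate receptor Grm5 2.58 ± 0.32 (2.81 and 0.23; adjusted p = 1.62e-05). The largest positive value among the named genes was that of Mfge8, a secreted bridge protein for phagocytosis, at 4.27 ± 0.39 (3.94 and -0.33). The sign was the reverse for the progenitor and radial glia genes Sox2 at -3.21 ± 0.34 (1.07 and 4.28) and Fabp7 at -3.08 ± 0.68 (1.37 and 4.45), for Calb1 at -2.82 ± 0.34 and Cxcr4 at -2.55 ± 0.47, for Ebf1 at -3.25 ± 0.22 and Zfhx3 at -2.79 ± 0.17 (both lower in cortical neurons, and further so with DMSO), for Slc17a6 at -2.50 ± 0.36 (-0.34 and 2.16; adjusted p = 0.000107) and for Tbr1 at -0.94 ± 0.20 (4.79 and 5.73).

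The TN day 5 levels with and without ICRF-193 lay at 8.41 and 8.37 against 9.81 and 10.06 for Slc17a6, and at 5.73 and 5.50 against 5.62 and 6.13 for Aldh1l1. Aldh1l1 in cortical arrays was at 7.21, 7.22 and 7.28 with ICRF-193 and at 9.20, 9.13 and 9.32 with DMSO. The dim level differed by group: 5.58 in cortical DMSO, 5.88 in cortical ICRF-193, 6.08 in TN day 5 DMSO and 6.37 in TN day 5 ICRF-193. Both TN day 5 levels of Aldh1l1 with ICRF-193 lay below it, and those with DMSO lay on either side of it. Interactions of genes that are dim at TN day 5 thus rest in part on such levels.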

How the results depend on the processing

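Of 285 named genes 233 were called against TN day 6, 213 of them in every one of the 14 other settings that tested them (the filter on dim genes leaves out 10 called genes, 7 of them among the 213), and 0 changed direction with a call. The 20 that lost a call in some setting include Gad2, Hoxd1, Dcn, Fabp7 and Klf4. The median of all genes against TN day 6 was -0.049 as deposited, 0.056 with quantile normalization and 0.081 with centring. Leaving out 1 array gave 7194 to 7477 called genes in cortical DMSO against TN day 6 (1418 to 1477 at least 2-fold), 5577 to 8192 (1233 to 1633) against TN day 5 DMSO, 5376 to 7780 (1031 to 1269) with ICRF-193 and 2434 to 3965 (267 to 352) between the ES-derived groups. Array weights gave 10936 calls and the compared arrays alone 10365 against TN day 6. In these comparisons the deviations of same-number arrays from their group means had correlations of -0.067 to 0.060, and 0.22 for 1 pair of ES-derived arrays. Pairing of DMSO with ICRF-193 arrays of the same source, which matters for the interaction, was not checked. With a replicate block the counts of called genes were 8052, 8629, 7926 and 4094 in the same order. Leaving out an array of a pair assumes that the lone array varies like the other groups. Fold changes understate differences that end in the dim range, and signal over background limits what can be said of genes there.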
